A study of Homo sapiens with 5 samples.

Results

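The 5′ domain of 18S ribosomal RNA (rRNA) was described here through its 2′-O-methylated positions, taken as every listed position of 18S up to the one named 18S_668. This rule chose 23 of the 110 positions in the deposited table, beginning at nucleotide 27, out of 41 positions of 18S in all. The rule used only the position number and no measured level. The last position inside it, 18S_668, had levels of 0.953 in ADAR1 #1, 0.956 in ADAR1 #2, 0.956 in ADAR2 #1, 0.959 in Mock and 0.954 in SCR, and the first one beyond it, 683, had 0.923, 0.943, 0.9399, 0.896 and 0.902 in the same libraries.

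Levels came from RiboMethSeq of total RNA from PaTu, an established human cell line derived from pancreatic cancer. There were 5 libraries, 2 labelled ADAR1 (#1 and #2), 1 labelled ADAR2 (#1), and 1 each labelled Mock and SCR, the last 2 being set together as controls because they name no ADAR gene. ADAR1 and ADAR2 are editing enzymes that deaminate adenosines of RNA duplexes, giving inosine. How the genes were manipulated, what #1 and #2 stand for and what the cells otherwise carried is not said in the labels, and separate cultures are not mentioned. Any p-value therefore reflects no more than how far these samples scatter, a scatter that may be technical. By its title the study concerns the RNA exosome and RNA stability. The comparison set here was of rRNA methylation between the ADAR labels and the controls. RiboMethSeq hydrolyses RNA in alkali, which spares the bond after a 2′-O-methylated ribose. Fragment ends are then scarce at a methylated position, and the level runs from 0 to 1. Read counts are not in the table, and the depth behind each level is unknown.

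The 5′ domain is the first part of 18S to be transcribed and folds into the body of the small ribosomal subunit. Its ribose methyl groups are placed by fibrillarin while the pre-rRNA is being made. A box C/D small nucleolar RNA (snoRNA) guides the enzyme by pairing with the rRNA next to its box D or D′, and the nucleotide opposite the fifth base before that box is the one methylated. Most of these snoRNAs are cut out of introns of genes for ribosomal proteins and ribosome assembly factors. U14 (SNORD14), whose target is position 462, is essential in yeast, where it is needed for processing of 18S.

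The guides of the positions at which libraries differed most are shown so that the shared guide element of 172 and 174, only 2 nucleotides apart, can be seen. Sequences are from GENCODE release 29 (GRCh38), written as DNA from 5′ to 3′. Capitals mark the run complementary to 18S next to box D or D′, for the positions compared here only. SNORD45A also holds a run next to box D that was found for 159, left in lower case.
SNORD45C: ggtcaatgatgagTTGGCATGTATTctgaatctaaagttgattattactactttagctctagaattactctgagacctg
SNORD45A: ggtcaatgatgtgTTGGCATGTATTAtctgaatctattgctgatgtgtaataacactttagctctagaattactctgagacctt
SNORD45B: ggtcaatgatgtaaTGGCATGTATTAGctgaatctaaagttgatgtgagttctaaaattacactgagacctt
SNORD90: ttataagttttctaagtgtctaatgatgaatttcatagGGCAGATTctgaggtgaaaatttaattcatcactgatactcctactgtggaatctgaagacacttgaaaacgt
SNORD100: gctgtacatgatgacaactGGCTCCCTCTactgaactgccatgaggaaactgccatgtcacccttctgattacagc
SNORD83A: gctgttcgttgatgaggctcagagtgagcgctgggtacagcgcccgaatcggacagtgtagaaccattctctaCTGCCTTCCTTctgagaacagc
SNORD83B: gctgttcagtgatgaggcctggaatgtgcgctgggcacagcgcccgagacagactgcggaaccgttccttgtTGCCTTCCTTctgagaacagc
SNORD65: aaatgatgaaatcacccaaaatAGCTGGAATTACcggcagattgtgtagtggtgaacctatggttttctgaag

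Assignment of guides to positions is background knowledge, and the pairing was then looked for by sequence. Of 34 snoRNAs assigned to the 23 positions, 31 were in GENCODE, and at least 1 was found for 21 positions. The 18S strand of the annotated pseudogene RNA18SP2 (1848 nucleotides) stood in for 18S. A run of at least 8 complementary bases that covered the fifth base before a box, and that lay within 8 nucleotides of the expected place, was found for 11 positions (27, 99, 159, 172, 174, 354, 436, 468, 576, 627 and 18S_668). The box was CTGA in each, on the snoRNA strand, except for CAGA in SNORD65. CTGA alone says little, since 98.3% of the 288 SNORD transcripts hold it. The search allowed 1 differing base in the box. At 354 the run had only 8 bases, the shortest allowed. No such run was found for 12 positions, counting those whose snoRNAs were not in GENCODE. Guides named for these 12 rest on background knowledge alone. A run not found does not show that pairing is absent, since the pseudogene may differ from 18S. The place matched the table's numbering exactly for 27, 99, 159, 172, 174 and 627, was 1 nucleotide further along the pseudogene for 354, 436, 468 and 576, and was 6 nucleotides before it for 18S_668. For SNORD45C the base so placed opposite the guide was the cytidine at 174, with a run of 12 bases. For SNORD45A and SNORD45B it was the uridine at 172, with runs of 13 bases. The elements of SNORD45A and SNORD45C share 12 bases and those of SNORD45B and SNORD45C share 11, and counted from the shared run, box D′ starts 2 bases earlier in SNORD45C than in the other two. At 354 and 627 the base was a uridine, at 436 a guanosine and at 468 an adenosine, as read in the pseudogene.

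In the genome all 3 SNORD45 genes lie within RABGGTB on chromosome 1, SNORD45C at chr1:75787072-75787150, SNORD45A at chr1:75787889-75787972 and SNORD45B at chr1:75789477-75789548 (all on the plus strand), and each overlaps an exon of at least 1 annotated transcript. SNORD100 is in an intron of RPS12 (chr6:132816802-132816877, plus strand) and SNORD90 in an intron of RC3H2 (chr9:122880213-122880323, minus strand). SNORD83A lies in an intron of RPL3 (chr22:39315213-39315307, minus strand), with SNORD83B in the same gene (chr22:39313819-39313911) overlapping an exon of at least 1 transcript. SNORD65 lies within the noncoding gene LRRC75A-AS1 (chr17:16441226-16441298, plus strand), again overlapping an exon.

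Most of the domain was near full methylation in every library. A mean level over the 5 libraries of at least 0.9 was reached by 16 of the 23 positions, or 69.6%, against 43.6% of all 110 positions. The median over the 23 positions was 0.917 in ADAR1 #1, 0.926 in ADAR1 #2, 0.921 in ADAR2 #1, 0.915 in Mock and 0.911 in SCR. The highest mean was at 484 (0.9604), a target of SNORD16, and next were 27 (0.958) and 517 (0.957), targets of SNORD27 and SNORD56. Below 0.9 were 468 (0.775), 172 (0.762), 428 (0.753), 436 (0.733), 627 (0.6599), 174 (0.568) and 354 (0.0537). Among these 7 the range over the 5 libraries had a median of 0.207, and among the other 16 it was 0.0211. Among the near-complete positions the means spanned 0.906 to 0.9604. The lowest library at 27, 512, 517, 576 and 18S_668 (0.942 or more) lay above the highest library at 116, 121, 159, 462, 509 and 644 (0.929 or less). Neighbours in the order of means, such as 27 and 517, overlapped between libraries.

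**Figure D1:**
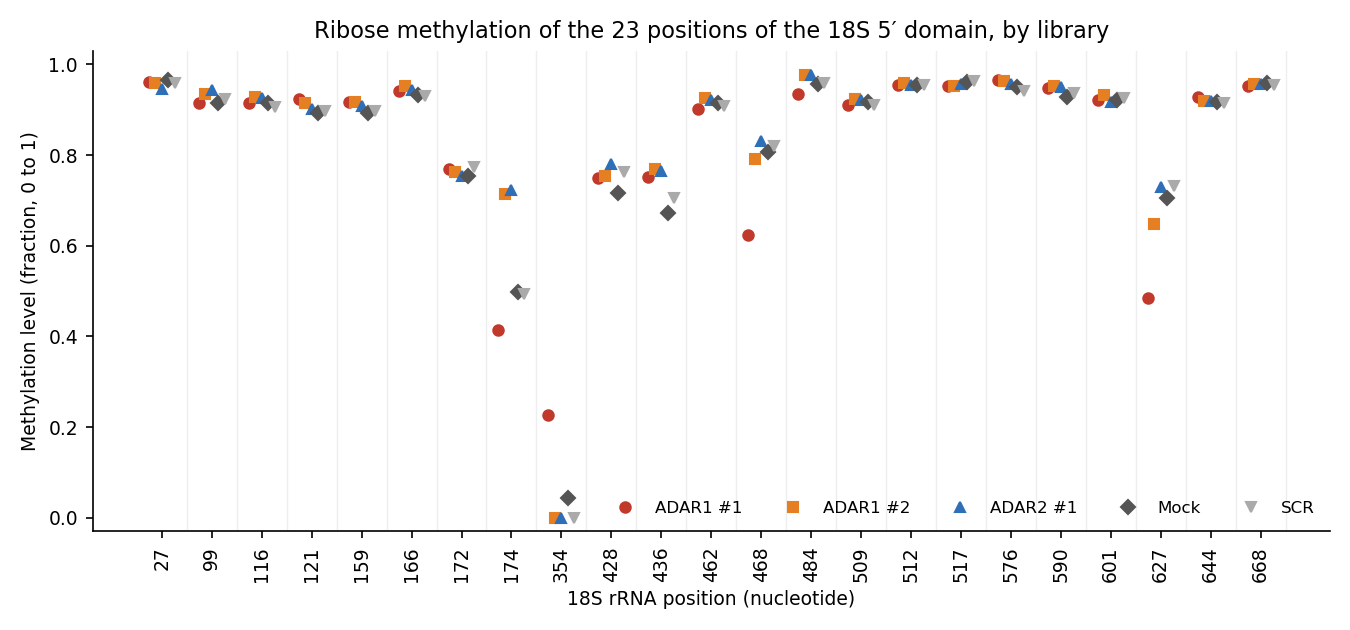
Methylation level (fraction, linear axis) at each of the 23 positions of the 18S 5′ domain, with 1 point for each of the 5 libraries. The 16 near-complete positions lie between 0.892 and 0.977 in all libraries, whereas 174, 354, 468 and 627 spread over more than 0.2.

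Position 174 gave the widest spread of the domain. Its level was 0.413 in ADAR1 #1, 0.714 in ADAR1 #2, 0.724 in ADAR2 #1, 0.497 in Mock and 0.493 in SCR. The ADAR1 libraries thus lay on opposite sides of the controls, and ADAR1 #2 was close to ADAR2 #1. Position 172, only 2 nucleotides away and methylated with the sister guides SNORD45A and SNORD45B, was at 0.769 in ADAR1 #1, 0.762 in ADAR1 #2, 0.753 in ADAR2 #1, 0.754 in Mock and 0.773 in SCR. The 5 libraries lay within 0.0201 of each other there. The level at 172 exceeded that at 174 by 0.355 in ADAR1 #1, 0.0487 in ADAR1 #2, 0.0295 in ADAR2 #1, 0.257 in Mock and 0.2802 in SCR. RiboMethSeq scores usually take flanking nucleotides into account, and the part of 1 position in the score of the other was not tested.

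Upstream in the same stretch, 159 (SNORD45 family) and 166 (SNORD44, a snoRNA of the GAS5 host gene) were near complete. At 166, 6 nucleotides before 172, levels were 0.942 in ADAR1 #1, 0.952 in ADAR1 #2, 0.944 in ADAR2 #1, 0.933 in Mock and 0.931 in SCR. At 159 they were 0.917, 0.916, 0.909, 0.892 and 0.897 in the same order of libraries. At both, the 3 ADAR libraries lay above both controls, by small amounts. Of 2 closely spaced targets of snoRNAs from RPL23A, 116 (SNORD42A and SNORD42B) was at 0.915 in ADAR1 #1, 0.929 in ADAR1 #2, 0.926 in ADAR2 #1, 0.914 in Mock and 0.907 in SCR. Its neighbour 121 (SNORD4A and SNORD4B) was at 0.923, 0.915, 0.902, 0.893 and 0.898 in that order, again with the ADAR libraries above the controls.

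Position 354, the target of SNORD90, was nearly unmethylated. The table lists it at 0.226 for ADAR1 #1, 0 for ADAR1 #2, 0 for ADAR2 #1, 0.0427 for Mock and 0 for SCR. The single value of ADAR1 #1 sets the ADAR1 mean there, and without that library the difference from the controls was -0.0214. Of all 110 positions 354 had the second lowest mean level. Its nearest listed neighbour is 74 nucleotides away, so no close methylated position can be set beside it.

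Next along the RNA are 428 and 436, 8 nucleotides apart and both partly methylated. Position 436 (SNORD100) was at 0.752 in ADAR1 #1, 0.769 in ADAR1 #2 and 0.765 in ADAR2 #1, whereas Mock had 0.672 and SCR had 0.705. All 3 ADAR libraries lay above both controls. Within the domain, only at 436 did each of them exceed the mean of the controls by at least 0.05. Outside the domain the same was seen at 28S_4590. There the ADAR1 mean exceeded the control mean by 0.0851 and ADAR2 #1 exceeded it by 0.0736. At 28S_4590 ADAR1 #1 minus ADAR1 #2 was -0.0168. The share of all listed positions with this trait was not counted. Position 428 (SNORD68) was at 0.749 in ADAR1 #1, 0.754 in ADAR1 #2 and 0.7802 in ADAR2 #1, whereas Mock had 0.717 and SCR had 0.764. Mock and SCR were further apart at 428 than at any other position of the domain (0.0466), and both ADAR1 libraries lay between them. At 436 Mock and SCR differed by 0.0327.

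Position 468, the target of SNORD83A and SNORD83B, was at 0.624 in ADAR1 #1, 0.791 in ADAR1 #2, 0.831 in ADAR2 #1, 0.806 in Mock and 0.821 in SCR. ADAR1 #1 alone stood far below the rest, and ADAR1 #2 was slightly below Mock. Its neighbour 462, 6 nucleotides upstream and guided by the SNORD14 family, was at 0.902, 0.926, 0.922, 0.915 and 0.908 in the same order. Position 484 (SNORD16), 16 nucleotides downstream, was at 0.934 in ADAR1 #1, 0.976 in ADAR1 #2, 0.977 in ADAR2 #1, 0.957 in Mock and 0.958 in SCR. ADAR1 #1 was the lowest library at all 3 of these positions, though by little at 462.

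Position 627, the target of SNORD65, was at 0.485 in ADAR1 #1, 0.649 in ADAR1 #2 and 0.731 in ADAR2 #1, whereas Mock had 0.704 and SCR had 0.731. Both ADAR1 libraries lay below both controls, while ADAR2 #1 equalled SCR to 3 decimals. The nearest listed position, 644 (SNORD54), 17 nucleotides downstream, was at 0.929, 0.9201, 0.9195, 0.917 and 0.914 in the order ADAR1 #1, ADAR1 #2, ADAR2 #1, Mock, SCR. Levels at 601 (SNORD103A and SNORD103B), the nearest on the other side, ranged from 0.917 to 0.933. The low levels of ADAR1 #1 at 627 were thus not shared with the listed positions on either side.

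**Figure D2:**
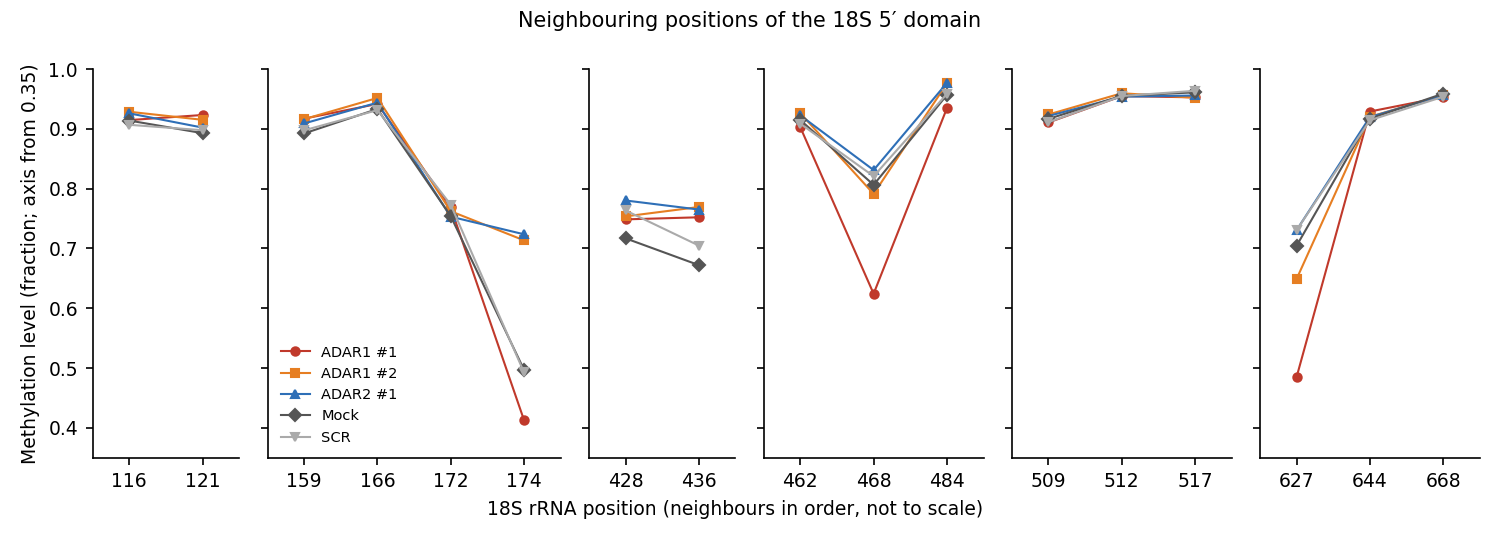
Methylation level (fraction, axis from 0.35 to 1) at neighbouring positions of the domain, with 1 line for each library. Lines of all libraries run together at 172, 462, 509 to 517, 644 and 18S_668, and part at 174, 468 and 627, where ADAR1 #1 is the lowest. Lines also part, by less, at 428 and 436, where Mock is the lowest.

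The triplet 509, 512 and 517 was near complete and even between libraries. Position 509 (SNORD11 and SNORD11B) was at 0.911 in ADAR1 #1, 0.924 in ADAR1 #2, 0.921 in ADAR2 #1, 0.917 in Mock and 0.911 in SCR. Position 512, the target of SNORD70, whose gene lies with those of SNORD11 and SNORD11B in NOP58, was at 0.955 in ADAR1 #1, 0.959 in ADAR1 #2, 0.954 in ADAR2 #1, 0.955 in Mock and 0.955 in SCR. Position 517 (SNORD56) was at 0.953, 0.952 and 0.956 in the ADAR1 #1, ADAR1 #2 and ADAR2 #1 libraries, against 0.961 in Mock and 0.964 in SCR. All 3 ADAR libraries lay below the controls at 517, with differences from their mean of -0.0097, -0.0103 and -0.0066. NOP58 and NOP56 encode core proteins of the box C/D particles themselves, and SNORD57, from NOP56, targets position 99, which ranged from 0.914 to 0.944.

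Of the remaining positions, 576 (SNORD93) was at 0.966 in ADAR1 #1, 0.964 in ADAR1 #2, 0.958 in ADAR2 #1, 0.951 in Mock and 0.942 in SCR. The ADAR libraries lay above the controls there. The same was seen at 590 (SNORD62A and SNORD62B, from PRRC2B), with 0.949, 0.953, 0.949, 0.929 and 0.938 in that order. It held at 116 and 644 as well. Such an order was common in the table. Of all 110 positions, 35.5% had both ADAR1 libraries above Mock and SCR, and 51.8% had ADAR2 #1 above them. Position 27 (SNORD27, from the noncoding host gene SNHG1) was lowest in ADAR2 #1 (0.946), against 0.961 in ADAR1 #1, 0.959 in ADAR1 #2, 0.964 in Mock and 0.959 in SCR. Position 18S_668 (SNORD36A and SNORD36B, from RPL7A) ranged over only 0.0057, as did 512.

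No position of the domain passed the test across the table, in which differences between labels are set against the spread between libraries. Levels were fitted with limma over all 110 positions and 5 libraries, with two-sided tests and Benjamini-Hochberg adjustment. Of the 23 positions, 0 passed an adjusted p of 0.05 for ADAR1 minus the controls, 0 for ADAR2 minus the controls and 0 for ADAR1 minus ADAR2, where 0% of all positions passed in each. The lowest adjusted p in the domain was 0.133 for ADAR1 (at 576), 0.219 for ADAR2 (at 27) and 0.528 for ADAR1 against ADAR2. An unadjusted p below 0.05 was reached at 8 positions for ADAR1, where 19.1% of all positions reached it. Of these, 6 were higher (121, 159, 166, 436, 576 and 590), against 15.5% of all positions, and 2 were lower (517 and 627), against 3.64%. For ADAR2 it was reached at 2 positions, where 12.7% of all positions did, with 436 higher (7.27% of all) and 27 lower (5.45% of all), and for ADAR1 against ADAR2 at 1, 27, where 8.18% did. The counts of 0 depended on both ADAR1 libraries being in the fit. Without ADAR1 #1, 12 positions passed for ADAR1 (50% of all), 7 for ADAR2 (32.7%) and 1 for ADAR1 against ADAR2 (11.8%), and without ADAR1 #2 the counts were 10 (25.5%), 7 (34.5%) and 9 (38.2%), with Mock and SCR alone giving the spread.

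The intervals show how little the partly methylated positions could be resolved. For ADAR1 minus the controls, limma gave a difference of 0.0722 at 436 (95% interval 0.0139 to 0.1304, adjusted p = 0.238). At 627 the difference was -0.151 (-0.292 to -0.0088, adjusted p = 0.251), and at 468 it was -0.106 (-0.241 to 0.0295, adjusted p = 0.375). At 174 the interval ran from -0.174 to 0.311 around 0.0682, and at 354 from -0.125 to 0.308 around 0.0915, both positions where the ADAR1 libraries lay far apart. A far smaller difference at 576 was better resolved, at 0.0187 (0.0079 to 0.0295, adjusted p = 0.133). For ADAR2 minus the controls the difference was 0.228 at 174 (-0.0686 to 0.525, adjusted p = 0.4697), 0.0765 at 436 (0.0052 to 0.148, adjusted p = 0.363) and -0.0156 at 27 (-0.0269 to -0.0044, adjusted p = 0.219). The ADAR2 label has 1 library, which was assumed to vary like the others.

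**Figure D3:**
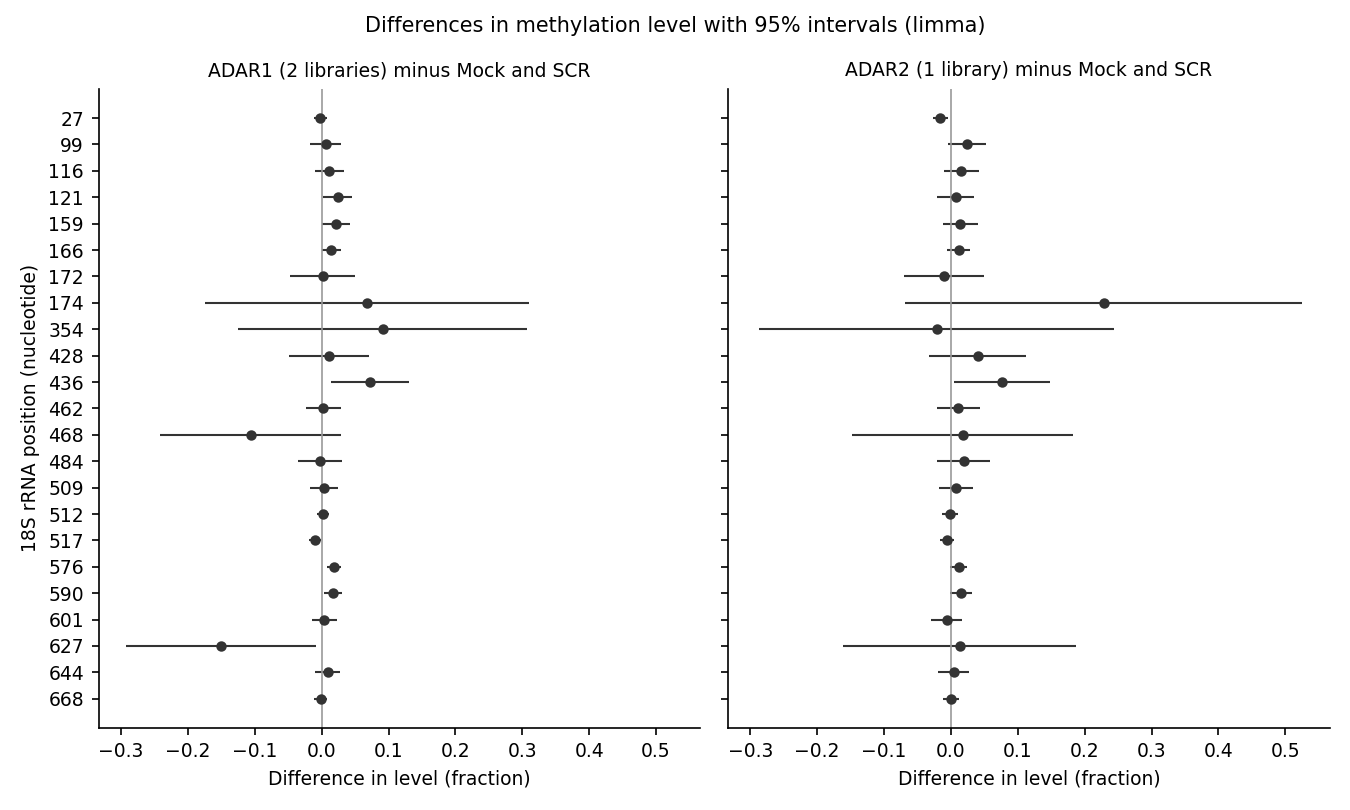
Difference in methylation level (fraction) at each position, ADAR1 minus the controls on the left and ADAR2 minus the controls on the right, with points for the limma estimate and bars for its 95% interval. Intervals are narrow at near-complete positions and wide at 174, 354, 468 and 627, and at 0 of 23 positions did the adjusted p fall below 0.05.

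A size rule without a model asked where every library of a label lay outside both Mock and SCR on 1 side with a mean difference of at least 0.05. For ADAR1 it held at 3 of the 23 positions, against 10.9% of all 110, with 436 above the controls (7.27% of all) and 468 and 627 below (3.64% of all). For ADAR2 #1 it held at 2, against 17.3% of all, with 174 and 436 above (11.8% of all). Taken singly, ADAR1 #1 met it at 5 positions (11.8% of all), above at 354 and 436 (5.45% of all) and below at 174, 468 and 627 (6.36% of all). ADAR1 #2 met it at 3 (18.2% of all), above at 174 and 436 (13.6% of all) and below at 627 (4.55% of all). With no limit on size, ADAR1 #1 and ADAR1 #2 were on the same side of Mock and SCR at 11 positions, 8 above (35.5% of all) and 3 below (14.5% of all), where 50% of all positions did so in either direction, and ADAR2 #1 at 20, where 82.7% did. Both labels were set against the same Mock and SCR libraries, so that their differences are not independent. The ADAR1 differences at 468 and 627 depended on the library: without ADAR1 #1 they were -0.0224 and -0.0686, and without ADAR1 #2 they were -0.189 and -0.233.

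ADAR1 #1 and ADAR1 #2 lay far apart at 4 positions. The difference ADAR1 #1 minus ADAR1 #2 was -0.3003 at 174, 0.226 at 354, -0.167 at 468 and -0.164 at 627, and these were the 4 largest of all 110 positions in size. At the 16 near-complete positions they differed by a median of 0.0084 and by at most 0.0415, at 484. The root mean square difference over the 23 positions was 0.0932 between ADAR1 #1 and ADAR1 #2, 0.105 between ADAR1 #1 and ADAR2 #1, 0.0209 between ADAR1 #2 and ADAR2 #1 and 0.0173 between Mock and SCR. Over the other 87 positions these values were 0.0466, 0.0527, 0.0279 and 0.015. The share of positions where ADAR1 #1 and ADAR1 #2 differed by at least 0.05 was nearly equal, however. It was 17.4% of the 23 positions and 17.2% of the other 87. The median size of their difference was smaller in the domain, at 0.009995 against 0.0181 over the other 87. The domain was thus not more discordant at its typical position. The comparison of the domain with the rest is a description, and no test was made of it.

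**Figure D4:**
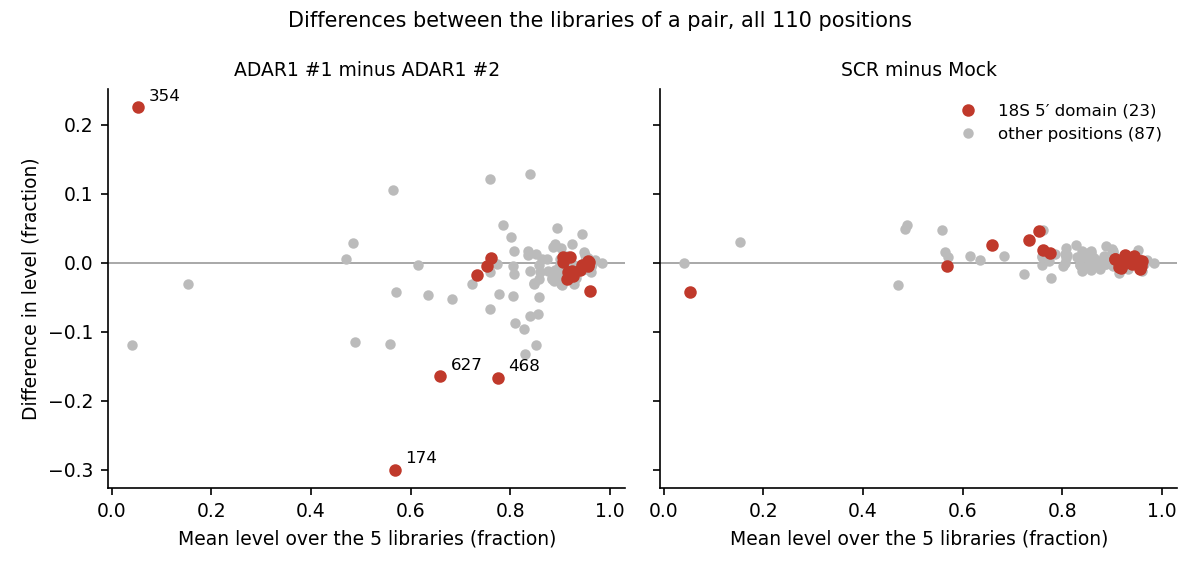
Difference in level (fraction) between ADAR1 #1 and ADAR1 #2 (left) and between SCR and Mock (right) against the mean level over the 5 libraries, for the 23 positions of the domain in red and the other 87 in grey. The points at 174, 354, 468 and 627 lie furthest from 0 on the left, and no point of the domain exceeds 0.0466 in size on the right.

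Averaged over its 23 positions the domain had a level of 0.824 in ADAR1 #1, 0.848 in ADAR1 #2, 0.851 in ADAR2 #1, 0.8298 in Mock and 0.834 in SCR. For ADAR1 the mean was 0.0047 above that of the controls, a difference smaller than the spread of ADAR1 #1 and ADAR1 #2 (SD 0.0167, n = 2). Without ADAR1 #1 this difference was 0.0165, and without ADAR1 #2 it was -0.0072. ADAR2 #1 exceeded the controls by 0.0198, where the control libraries had an SD of 0.0027 (n = 2). The median over positions instead of the mean gave 0.0086 for ADAR2, and the largest single difference was 0.228, at 174. Of the 23 positions 17 were higher and 6 lower than the control mean for ADAR1, with a median difference of 0.0063, and 17 higher and 6 lower for ADAR2, with a median of 0.0114. Over all 110 positions the counts were 70 higher and 40 lower for ADAR1 (median 0.0078) and 72 higher and 38 lower for ADAR2 (median 0.0053). The other 18 positions of 18S had 12 higher and 6 lower for ADAR1 (median 0.011). For ADAR2 they had 15 higher and 3 lower, with a median of 0.0177 and a mean of 0.0223, so the rise was not particular to the domain. With 2 libraries on each side, exact permutation cannot give a p below 0.333, and none was run.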

How the data were processed

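The authors deposited a methylation level per rRNA position and library as a fraction from 0 to 1, for 110 positions. The submitters' processing notes name SAMtools 1.15.1, Bowtie2 2.3.5.1, Trimmomatic 0.39 and FastQC 0.11.9, and per the labels' protocols total RNA was treated with DNase, hydrolysed and end-repaired. How the score was calculated, and on which rRNA sequence, is not given in the sources used here. Levels were used as deposited, with 0 columns left unmatched. Depth is unknown, and the 5 libraries limit the precision.

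Differences were fitted with limma 3.58.1 (R 4.3.3) over 3 groups of the 5 libraries (ADAR1, ADAR2, and Mock with SCR), with 2 residual degrees of freedom and an eBayes prior worth 3.41 (trend on the mean level). Adjustment was over 110 positions. The fit was run on simulated levels with a constant spread taken from Mock and SCR, smaller than that between the ADAR1 libraries. The simulation therefore cannot show how the fit behaves at the wider spread of these data. Every member was described. Values per library were given for members that met the size rule, the 5 lowest, the 5 with the largest difference between the ADAR1 libraries, and those within 6 nucleotides of another. Position 683 is the first beyond the rule. Full values of 27, 159, 576, 590 and 644, and comments on them, were added after the values were seen. Members, guides and lists were chosen with earlier results of these data known. SNORD44, SNORD103A and SNORD103B were not matched in the transcript set, and their sequences were not used here. Alternatives were other variance trends, the logit, a level filter, median-centred libraries, other thresholds and each library of a pair left out. Figures were drawn with matplotlib 3.10.9.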

Additional observations from a re-analysis of the deposited data

Results flagged for a closer look

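At 18S position 468 both ADAR1 libraries lay below Mock and SCR while ADAR2 #1 lay above them. Levels were 0.624 in ADAR1 #1, 0.791 in ADAR1 #2, 0.831 in ADAR2 #1, 0.806 in Mock and 0.821 in SCR. The direct test of ADAR1 minus ADAR2 in limma gave -0.123 (95% interval -0.289 to 0.0424, adjusted p = 0.724), so the difference between the labels did not pass. ADAR1 #2 was slightly below Mock, and Mock and SCR differed by 0.0144. Labels on opposite sides of the controls were not particular to 468. At 18S_1703, outside the domain, the ADAR1 mean differed from the control mean by -0.0105 and ADAR2 #1 by 0.006. At 28S_3724 these differences were 0.0472 and -0.0477, in the reverse direction. The share of all listed positions with such a pattern was not counted, so 468 cannot be called unusual. No group held the 4 libraries needed to look for a library far from the others of its group.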

How the results depend on the processing

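The count of 0 positions past the threshold was also obtained on the logit scale, without the variance trend, with it fitted robustly, with a mean level of at least 0.5, with median-centred libraries and at an adjusted p of 0.1, for all 3 comparisons. Leaving out 1 library gave 0 to 12 positions for ADAR1, 0 to 7 for ADAR2 and 0 to 9 for ADAR1 against ADAR2. The counts above 0 arose where ADAR1 #1 (12, 7 and 1) or ADAR1 #2 (10, 7 and 9) was left out. Mock and SCR alone then set the spread, and the lone ADAR1 library was assumed to vary like them. In those fits 50% and 25.5% of all 110 positions were called for ADAR1. A size limit of 0.02 gave 5 positions for ADAR1 and 4 for ADAR2, and a limit of 0.1 gave 1 for ADAR2. Under the limit of 0.05, leaving out 1 library gave 3 to 5 for ADAR1. For the mean over positions, the median instead gave 0.00866 for ADAR1, against 0.00465 as reported, and 0.00863 for ADAR2, against 0.0198. The ADAR1 value was 0.000781 with median-centred libraries and 0.000708 over positions with a mean level of at least 0.5.

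Centring turned the ADAR1 difference at 172 (-0.00219), 462 (-0.00113), 509 (-0.000461) and 512 (-0.0018) and the ADAR2 difference at 18S_668 (-0.000835). Leaving out 1 library turned the ADAR1 difference at 12 positions, with ranges of -0.00448 to 0.000955 at 27, -0.00354 to 0.0162 at 99, -0.00785 to 0.0112 at 172, -0.0819 to 0.218 at 174, -0.0214 to 0.204 at 354, -0.0124 to 0.0342 at 428, -0.00903 to 0.0145 at 462, -0.0231 to 0.0184 at 484, -0.00326 to 0.0101 at 509, -0.000301 to 0.00444 at 512, -0.00176 to 0.00969 at 601 and -0.00415 to 0.00104 at 18S_668. For ADAR2 it did so at 627 (-8.14e-05 to 0.0261) and 18S_668 (-0.00246 to 0.00272). The cause was not tested. No paired analysis was possible because the groups share fewer than 2 replicate numbers, Mock and SCR carrying none. With the depth unknown, no counting error can be set beside a level.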
